A study of Mus musculus with 6 samples.

Results

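The genes of the extracellular matrix, its proteoglycans and its proteases were followed in mesenteric lymph nodes of naive adult knockout mice. The set holds 42 genes picked by name for their role, with earlier results of these data known. They are 13 collagens, 6 proteoglycans, 14 other matrix glycoproteins, 2 crosslinking enzymes, 4 matrix metalloproteinases and 3 of their tissue inhibitors. Probes carrying a symbol of the set measured 30 of these genes, among 37049 genes tested on the array. The 30 genes had 35 probes of 60 bases each, and every one of the 35 was well above background on all 6 arrays, with none saturated. The other 12 genes (Col3a1, Col4a2, Col5a2, Col6a3, Vcan, Hspg2, Fbln1, Fbn1, Fn1, Thbs1, Lama4 and Loxl1) were matched to no probe and are not analysed here.

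Both groups carried a knockout. One was labelled B-TNF KO (called B_TNF_KO below) and the other TB-TNF KO double (called TB_TNF_KO), which by the series title stand for loss of the cytokine TNF made by B cells, or by both T and B cells. Every mouse in the study therefore lacked B cell TNF by its label, no wild-type node was analysed here, and how the gene was deleted is not given in the sources used here. Each of the 6 arrays, 3 per group, held RNA from the pooled nodes of 3 mice in Cy3 against a reference in Cy5, a pool of RNA from 11 mouse cell lines that include fibroblast, kidney, liver, macrophage, lymphocyte, mammary, myoblast, skin and testis cells. By the labels all pools were male except TB_TNF_KO replicate 2, which was female.

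The stroma of a lymph node is a mesh of collagen-rich conduits that fibroblastic reticular cells make and wrap, with basement membranes around blood and lymphatic vessels and a fibrous capsule outside. Collagens give this mesh its strength, small leucine-rich proteoglycans such as decorin and lumican coat and space the fibrils, and glycoproteins such as laminin and nidogen tie the basement membrane together. Matrix metalloproteinases cleave these proteins, and the tissue inhibitors of metalloproteinases (TIMPs) block the enzymes.

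Of the measured genes, 5 had more than 1 probe, and the probe sequences of 3 of them are shown because the results turn on whether their probes gave the same answer. The probe with the brighter mean sample signal was the one tested for the gene. For Prg4, encoding the lubricating proteoglycan lubricin, the probes overlapped end to end, and the 29 bases they share are in capitals.
Prg4, tested probe: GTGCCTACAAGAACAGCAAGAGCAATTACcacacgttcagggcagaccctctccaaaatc
Prg4, other probe: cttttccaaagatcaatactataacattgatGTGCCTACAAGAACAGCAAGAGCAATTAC
For Timp3, encoding a TIMP that binds to the matrix, the probes shared no end. Capitals mark TAA, TAG and TGA, the triplets that would stop translation. Bases 11 to 39 of the tested probe are shown, with 1 such triplet in each of the 3 reading frames in capitals, and the whole of the other probe.
Timp3, tested probe: TAAtgttgcaTAGtgttcactttttaTAG
Timp3, other probe: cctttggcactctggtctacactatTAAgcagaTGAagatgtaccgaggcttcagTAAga
For Col14a1, encoding a collagen that binds to the surface of fibrils, capitals mark the same triplets. Bases 1 to 30 of the tested probe are shown, and the whole of the other probe, which holds none.
Col14a1, tested probe: cgtaTAAaaTAATGActtccttccagttcc
Col14a1, other probe: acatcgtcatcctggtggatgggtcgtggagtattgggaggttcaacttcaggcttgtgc
As listed 5′ to 3′ in the array files, the tested Timp3 probe was 1 of 4 among the 35 probes (with those of Col6a2, Col18a1 and Nid1) with a stop triplet in all 3 frames, and the other 31 had an open frame. Both probes of a pair were assigned to their gene through the same transcript record, and their place within the transcript was not determined.

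The 6 arrays were not equally independent. Between TB_TNF_KO arrays 1 and 2, log2 sample signals scattered 0.952 times as much as the reference signals, which come from 1 RNA, and in the other 14 pairs of arrays this ratio was 1.05 to 1.59. These arrays thus differed by about the technical noise. They were counted as 1 sample, so n was 3 against 2 where nothing else is said. Deviations from the group means correlated between same-numbered arrays for replicates 2 and 3 (0.52 and 0.62), but little for replicate 1 (0.14). B_TNF_KO array 2 also correlated with TB_TNF_KO array 1 (0.41), and B_TNF_KO array 3 ran against TB_TNF_KO arrays 1 and 2 (-0.48 and -0.54). Replicate 3 thus stood apart, while pairs 1 and 2 are not settled by these values. The numbers were taken as pairs, and calls under the block below rest on that. Where a fit with the replicate number as a block, which counts all 6 arrays separately, changes a call, its value is given too. TB_TNF_KO arrays 1 and 2 also stood apart in the Y-linked gene Eif2s3y (-2.81 and -2.84, against 0.59 to 1.83 on the other 4), although array 1 is labelled male. The arrays low in Eif2s3y were all in TB_TNF_KO, so sex cannot be fully told apart from genotype. Exocrine pancreas genes had a median log2 ratio of 3.76 to 4.63 on replicates 1 and 2 of both groups and of 0.02 to 0.04 on replicate 3 of both. Median background-subtracted intensity was 159 to 203 (B_TNF_KO) and 144 to 166 (TB_TNF_KO) in the sample channel, and 280 to 283 and 315 to 362 in the reference channel. Per the file headers the scans were read on 2 days with 1 group on each, so genotype and reading day cannot be told apart. B and T cell genes matched the tissue label: all 6 measured markers of each lay above the reference on all 6 arrays, and Ccl19, the reticular cell chemokine, lay between 4.37 and 4.62 on the log2 scale.

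Against the cell line reference the matrix genes split cleanly by their tested probes. Of the 30, 9 were above the reference on all 6 arrays, 21 were below it on all 6, and 0 crossed it. The other probe of Timp3 lay above it on all 6 (0.03 to 0.17), and that of Col14a1 crossed it (-0.03 to 0.09). The other probes of Prg4, Lamb1 and Mmp9 lay on the same side as the tested ones. These log2 ratios compare node RNA with cell line RNA for the same probe and do not rank genes by amount.

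**Figure D1:**
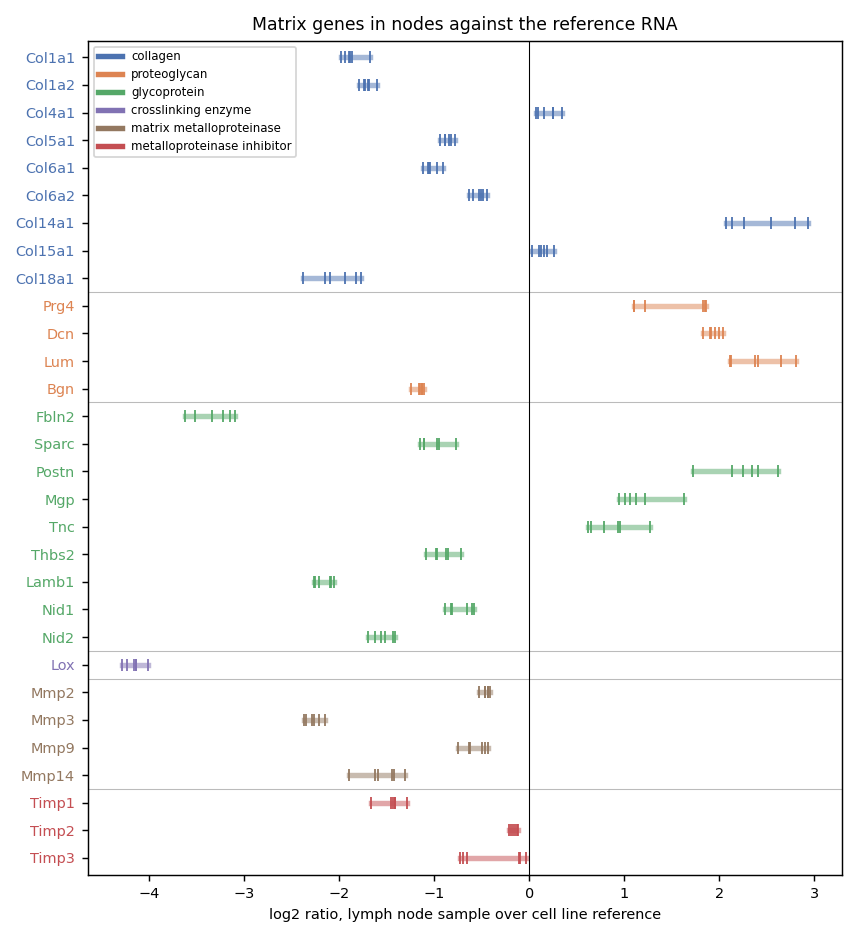
The x axis gives the log2 ratio of lymph node sample over cell line reference for the tested probe of each of the 30 genes, in rows by role; each tick is 1 of the 6 arrays and the bar spans them. The rows of 9 genes lie wholly right of 0, led by Col14a1, Lum and Postn, and Lox lies farthest left, between -4.29 and -4.02.

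The proteoglycans were mostly node-rich. Lum (lumican) lay between 2.11 and 2.81, Dcn (decorin) between 1.83 and 2.04, and Prg4 between 1.10 and 1.86, while Bgn (biglycan), a close relative of decorin, lay between -1.25 and -1.10. Among the collagens, Col14a1 stood between 2.07 and 2.94, and the basement membrane collagens Col4a1 (0.07 to 0.34) and Col15a1 (0.03 to 0.26) were just above the reference. The chains of fibrillar collagen I were below it, Col1a1 between -1.98 and -1.68 and Col1a2 between -1.79 and -1.60. So were Col5a1, which joins the same fibrils (-0.93 to -0.78), the microfibril genes Col6a1 (-1.11 to -0.91) and Col6a2 (-0.64 to -0.45), and Col18a1, a vessel wall collagen (-2.38 to -1.77).

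Glycoproteins ran the widest. The matricellular gene Postn (periostin) lay between 1.73 and 2.62, Mgp, an inhibitor of calcification, between 0.95 and 1.63, and Tnc (tenascin-C) between 0.62 and 1.27. The basement membrane genes were below the reference, with Lamb1 (a laminin chain) at -2.27 to -2.06, Nid1 at -0.88 to -0.58 and Nid2 at -1.70 to -1.41. Fbln2 (fibulin), an elastic fibre and basement membrane protein, lay between -3.62 and -3.10. By their tested probes, all 4 metalloproteinases and all 3 inhibitors were below the reference on every array. Mmp3 (stromelysin) was lowest at -2.37 to -2.14, and Timp2 (-0.22 to -0.11) and Timp3 (-0.72 to -0.03) came nearest to the reference. The other Timp3 probe lay above it, between 0.03 and 0.17.

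Between the genotypes, 1 matrix gene passed the threshold. The sample over reference ratio of Prg4 was 1.64-fold lower in TB_TNF_KO, a fall that passed over all genes. Part of that fall lay in the reference channel, higher by 0.27 on the log2 scale, with the sample channel lower by 0.45 (given below). The arrays of B_TNF_KO read 1.85, 1.83 and 1.86 (log2 ratio) and those of TB_TNF_KO 1.22, 1.11 and 1.10. All TB_TNF_KO arrays were low, and the groups were far apart relative to the spread within each (SD 0.02, n = 3, and 0.04, n = 2). The difference was -0.71 (SE 0.04, limma adjusted p = 0.029 over all genes). Because these are whole nodes, fewer cells of a type and less RNA per cell cannot be told apart. The p-values measure the spread between these pools, which are known to be separate animals from the labels alone.

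The neighbouring Prg4 probe, which shares the 29 bases in capitals above, gave 1.85, 1.78 and 2.11 in B_TNF_KO and 1.27, 1.01 and 1.63 in TB_TNF_KO. It was lower by 0.53 (SE 0.16, adjusted p = 0.19 over all probes), again with no overlap of the groups, but it scattered more and did not pass. Its spots were dimmer, with background-subtracted reference intensities of 24 to 46, against 102 to 172 for the tested probe. The Prg4 call depended on single pools. The difference stayed between -0.74 and -0.68 with any array left out, but the gene passed the threshold only without TB_TNF_KO replicate 1. The adjusted p was 0.11, 0.088 and 0.15 without B_TNF_KO replicate 1, 2 or 3, and 0.051 and 0.18 without TB_TNF_KO replicate 2 or 3. Without background subtraction the difference was -0.34 (adjusted p = 0.061), and with the mean of both probes -0.62 (adjusted p = 0.056).

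The other proteoglycans did not pass. Lum gave 2.65, 2.81 and 2.38 in B_TNF_KO and 2.40, 2.13 and 2.11 in TB_TNF_KO. The highest TB_TNF_KO array lay just above the lowest B_TNF_KO array, so the groups overlapped, and the difference was -0.43 (SE 0.13, adjusted p = 0.18). Dcn gave 1.95, 2.04 and 2.00 against 1.90, 1.91 and 1.83, a small shift of -0.13 (SE 0.05, adjusted p = 0.28) with no overlap. Bgn, at 0.05 (SE 0.05), had overlapping groups.

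Only Prg4 was thus called: of the 30 measured matrix genes, 1 passed as lower and 0 as higher, where 0.0108% of all genes passed as lower (4 of 37049) and 0% as higher. With every probe as its own feature, the tested Prg4 probe was the 1 of 35 matrix probes to pass, where 0.0147% of all probes passed as lower. At an unadjusted p under 0.05, 1866 of all genes were higher. A single call says nothing about the set as a whole. At an unadjusted p under 0.05, 10 of the 30 were lower, against 11.3% of all genes, and 1, Fbln2, was higher, against 5.04%. All TB_TNF_KO arrays lay below all B_TNF_KO arrays for 9 of them, against 17.2% of all genes, and above for 2 (Col15a1 and Fbln2), against 10.7%. In all, 19 of the 30 differences were below 0 (63.3%), against 55% of all genes. The median difference was -0.09 for matrix genes and -0.01 for all genes. It was 0.00 without background subtraction and -0.16 in the sample channel alone, so the size of this shift hung on the processing. The set was chosen with earlier results of these data known, so these counts and medians are no independent test of it. Without Prg4 and Timp3, 8 of the 28 measured genes were lower at an unadjusted limma p under 0.05. All TB_TNF_KO arrays lay below for 7 of the 28, and the median difference was -0.07.

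**Figure D2:**
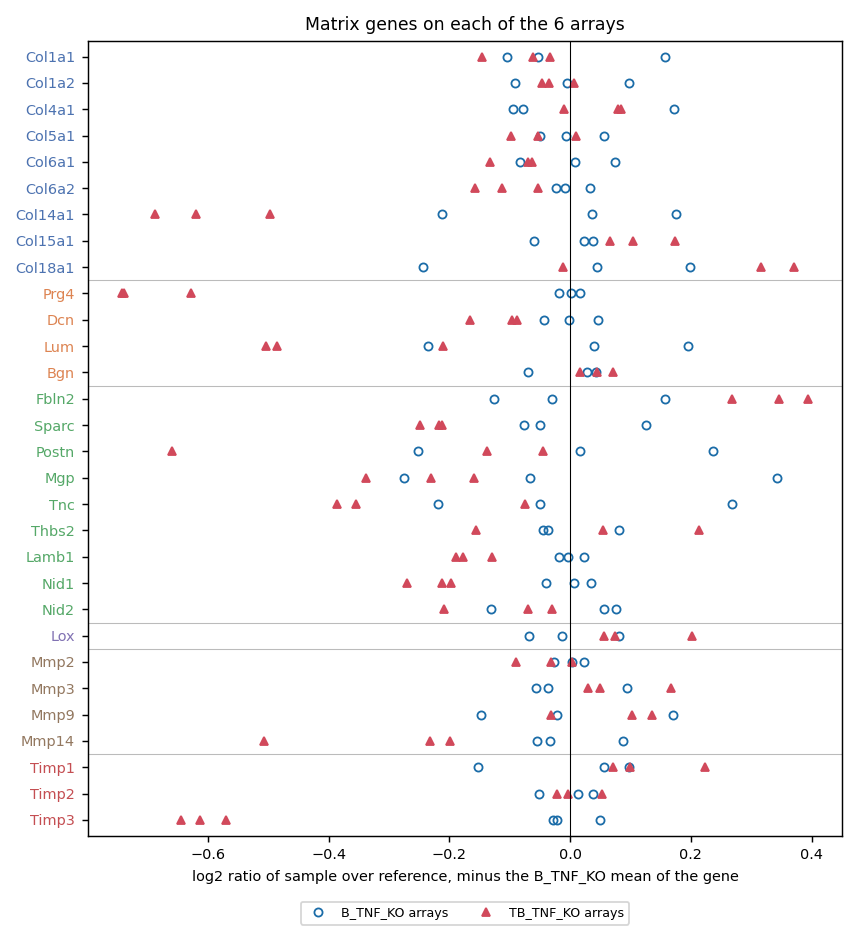
The x axis gives the log2 ratio on each array minus the mean of the 3 B_TNF_KO arrays, for the tested probe of each of the 30 genes in rows by role; open circles are B_TNF_KO arrays and triangles TB_TNF_KO arrays. The triangles of Prg4, Timp3 and Col14a1 lie left of all circles of their rows, by more than in any other row, and those of Fbln2 lie right of them.

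Among the 9 measured collagens, 6 differences were below 0 and 3 above, 0 passed, and the median was -0.06. The widest was that of Col14a1. Its tested probe gave 2.94, 2.80 and 2.55 in B_TNF_KO and 2.26, 2.07 and 2.14 in TB_TNF_KO. The TB_TNF_KO arrays were all low, with no overlap, and the difference was -0.61 (SE 0.11, adjusted p = 0.074), or -0.60 with the replicate block (adjusted p = 0.014). The other Col14a1 probe, shown above without a stop triplet, gave 0.00, -0.03 and 0.00 in B_TNF_KO and 0.01, 0.09 and -0.02 in TB_TNF_KO. That probe lay at the level of the reference on every array and showed no shift, with a difference of 0.02 (SE 0.04). Its sample intensities were 71 to 104 after background subtraction, against 930 to 1869 for the tested probe.

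Col18a1 was the next widest collagen and ran the other way. It gave -2.09, -1.94 and -2.38 in B_TNF_KO and -1.82, -1.77 and -2.15 in TB_TNF_KO. Replicate 3 was the lowest array of each group, the groups overlapped, and the difference was 0.17 (SE 0.16, adjusted p = 0.68). By pairs of the same number, TB_TNF_KO was the higher array in all 3, and with the replicate block the difference was 0.22 and passed (SE 0.04, adjusted p = 0.035). That call takes the numbers as pairs and counts TB_TNF_KO arrays 1 and 2 separately. In the unblocked fit the sample channel differed by 0.06 (SE 0.14) and the reference channel by -0.10 (SE 0.05). Without the block, leaving out replicate 3 of B_TNF_KO gave 0.04, and leaving out that of TB_TNF_KO gave 0.34.

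The remaining collagens differed little. The log ratio of Col15a1 was higher on every TB_TNF_KO array (0.19, 0.15 and 0.26) than on any B_TNF_KO array (0.03, 0.11 and 0.12), by 0.13 (SE 0.05, adjusted p = 0.31). That difference lay in the reference channel, at -0.17 (SE 0.05), while the sample channel was at -0.04 (SE 0.09). Col6a2 was lower on every TB_TNF_KO array (-0.53, -0.64 and -0.59, against -0.45, -0.50 and -0.49), by 0.11 (SE 0.04, adjusted p = 0.29), and its partner chain Col6a1 gave -0.10 (SE 0.06). Both chains of collagen I were near 0, Col1a1 at -0.10 (SE 0.09) and Col1a2 at -0.03 (SE 0.06), as were Col5a1 at -0.06 (SE 0.05) and Col4a1 at 0.04 (SE 0.09). These 4 had groups that overlapped.

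Of the 9 measured glycoproteins, 7 differences were below 0, 0 passed and the median was -0.22. Postn had the largest. It gave 2.62, 2.40 and 2.14 in B_TNF_KO and 2.34, 2.25 and 1.73 in TB_TNF_KO, with replicate 3 the lowest of each group and the groups overlapping. The difference was -0.38 (SE 0.20, adjusted p = 0.43), and -0.09 without TB_TNF_KO replicate 3. With the replicate block it was -0.28 and passed (SE 0.06, adjusted p = 0.045). Fbln2 had the largest difference above 0 among the glycoproteins, without passing in the unblocked fit. It gave -3.62, -3.34 and -3.52 in B_TNF_KO and -3.22, -3.15 and -3.10 in TB_TNF_KO, with all TB_TNF_KO arrays above, by 0.35 (SE 0.09, adjusted p = 0.13), or 0.34 with the replicate block (adjusted p = 0.031).

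The basement membrane genes Nid1 and Lamb1 and the collagen-binding gene Sparc were lower on every TB_TNF_KO array without passing in the unblocked fit. Nid1, the nidogen that links laminin to collagen, gave -0.65, -0.58 and -0.61 against -0.82, -0.88 and -0.81, a difference of -0.22 (SE 0.05, adjusted p = 0.093), or -0.23 with the replicate block (adjusted p = 0.040). Sparc gave -0.95, -0.77 and -0.97 against -1.11, -1.14 and -1.11, also -0.22 (SE 0.07, adjusted p = 0.20). Lamb1 gave -2.08, -2.06 and -2.10 against -2.21, -2.26 and -2.27, or -0.17 (SE 0.04, adjusted p = 0.13). Its other probe was at -0.09 (SE 0.05), in the same direction and with no overlap. Nid2, the relative of Nid1, differed by -0.08 (SE 0.08) with overlapping groups.

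The last glycoproteins varied widely within groups. Mgp gave 1.63, 1.01 and 1.22 in B_TNF_KO and 1.06, 0.95 and 1.13 in TB_TNF_KO. Its difference of -0.22 (SE 0.17) rested on B_TNF_KO replicate 1, the highest array, and was -0.05 without it. Tnc gave 0.79, 0.96 and 1.27 against 0.62, 0.65 and 0.93, with replicate 3 the highest of each group. Its difference was -0.22 (SE 0.16), and -0.09 without B_TNF_KO replicate 3. With the replicate block it was -0.27 and passed (SE 0.05, adjusted p = 0.034). For Thbs2, a thrombospondin, the values of -0.98, -0.85 and -0.97 lay within those of TB_TNF_KO (-1.09, -0.72 and -0.88), and the difference was 0.04 (SE 0.05).

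Lox, the one crosslinking enzyme measured, joins collagen and elastin chains. It gave -4.23, -4.14 and -4.29 in B_TNF_KO and -4.16, -4.02 and -4.14 in TB_TNF_KO, overlapping values 0.10 apart (SE 0.06, adjusted p = 0.47). The direction turned with the channel used, since the sample channel gave -0.06 (SE 0.07) and the reference channel -0.16 (SE 0.04).

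Among the metalloproteinases 2 differences were below 0, 2 above and 0 passed. Mmp14, the membrane-bound enzyme that activates the Mmp2 proenzyme, gave -1.45, -1.31 and -1.43 in B_TNF_KO and -1.63, -1.59 and -1.90 in TB_TNF_KO. It was lower on every TB_TNF_KO array and lowest on replicate 3, by 0.36 (SE 0.10, adjusted p = 0.14), or 0.22 without that replicate. With the replicate block the difference was -0.31 and passed (adjusted p = 0.045). Mmp3 gave -2.35, -2.22 and -2.37 against -2.28, -2.26 and -2.14, overlapping values 0.10 apart (SE 0.07, adjusted p = 0.53). Mmp2, the gelatinase that Mmp14 activates, differed by -0.04 (SE 0.04), and the other gelatinase, Mmp9, had probes of opposite sign at 0.04 (SE 0.10) and -0.05 (SE 0.05).

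Of the 3 inhibitors 1 difference was below 0, 2 were above and 0 passed. The tested Timp3 probe gave -0.10, -0.11 and -0.03 in B_TNF_KO and -0.65, -0.69 and -0.72 in TB_TNF_KO. Every TB_TNF_KO array was low and the groups were tight, with a difference of -0.62 (SE 0.05) that lay just outside the threshold (adjusted p = 0.053), and with the replicate block it passed (adjusted p = 0.010). The other Timp3 probe gave 0.10, 0.03 and 0.06 against 0.12, 0.16 and 0.17, so there every TB_TNF_KO array was the higher one, by 0.09 (SE 0.04). Timp1, which blocks many metalloproteinases, gave -1.41, -1.45 and -1.66 against -1.41, -1.28 and -1.44, overlapping values 0.12 apart (SE 0.08, adjusted p = 0.58), and Timp2 differed by 0.01 (SE 0.05).

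Timp3 and Col14a1 thus each had a tested probe with lower values in TB_TNF_KO and another probe without. Over the 2561 genes of the array with 2 probes, the median gap between the differences of their probes was 0.09, and 41.0% had differences of opposite sign. A gap as wide as that of Timp3 occurred in 0.547% of them and one as wide as that of Col14a1 in 0.781%, while 20% had one as wide as that of Prg4. The tested Timp3 probe was bright (sample intensity 2624 to 8398) and the other dim (132 to 222). The base composition also differed, with 30% G or C in the tested Timp3 probe against 45% in the other, and 40% against 53.3% for Col14a1. Differences ran with base composition over all genes, from a median of -0.06 at up to 35% G or C to 0.03 above 55%. After a correction for it Timp3 differed by -0.58, Col14a1 by -0.60 and Prg4 by -0.73. With the mean of both probes, Timp3 differed by -0.26 and Col14a1 by -0.29. Which probe reports the whole transcript was not tested.

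**Figure D3:**
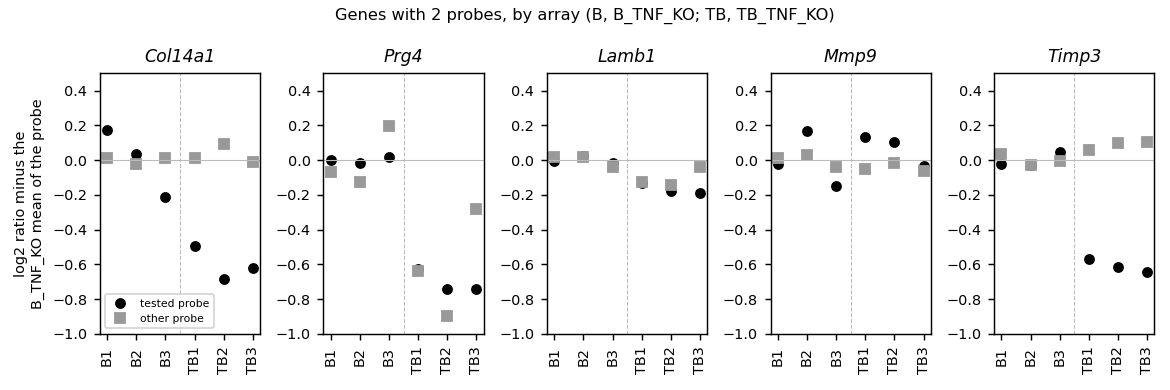
For the 5 matrix genes with 2 probes, the y axis gives the log2 ratio on each array minus the probe's mean over the B_TNF_KO arrays; black circles are the tested probe and grey squares the other. Both Prg4 probes are lower on TB1 to TB3, whereas for Col14a1 and Timp3 only the tested probe is, and Lamb1 and Mmp9 stay within 0.20 of 0.

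A log ratio can move through either of its channels, although the reference RNA was the same on every array. After scaling the channels between arrays, the tested Prg4 probe was lower by 0.45 (SE 0.07) in the sample channel and higher by 0.27 (SE 0.05) in the reference channel. A sizeable part of the log ratio difference of that tested probe therefore lay in the reference. The other Prg4 probe was lower by 0.53 (SE 0.14) in the sample channel and differed by -0.01 (SE 0.05) in the reference. In Col14a1 the reference moved more than the sample, with the sample lower by 0.27 (SE 0.12) and the reference higher by 0.34 (SE 0.08). Lum gave -0.27 (SE 0.08) in the sample and 0.16 (SE 0.09) in the reference. For Timp3 most of the difference lay in the sample channel, with -0.53 (SE 0.10) against 0.09 (SE 0.08).

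In some of the other genes the reference barely differed. The sample channel carried the difference in Fbln2 (0.37, reference 0.02), Mmp14 (-0.33, reference 0.04), Postn (-0.41, reference -0.03) and Sparc (-0.22, reference 0.00). The microfibril collagens behaved in another way, with both channels lower: Col6a1 by 0.34 in the sample and 0.24 in the reference, Col6a2 by 0.28 and 0.17, which leaves little in the ratio. In the sample channel alone 114 of all probes passed as lower (0.279%) and 74 as higher (0.181%), and of the matrix probes 0 passed. Prg4 came nearest (adjusted p = 0.051), followed by Timp3 (0.059), Nid1 (0.062), Col6a1 (0.068) and Fbln2 (0.069). With another scaling of the sample channel (quantile) and 1 probe per gene, Prg4 passed at -0.39 (adjusted p = 0.048), where 0.772% of all genes passed as lower and 0.683% as higher.

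**Figure D4:**
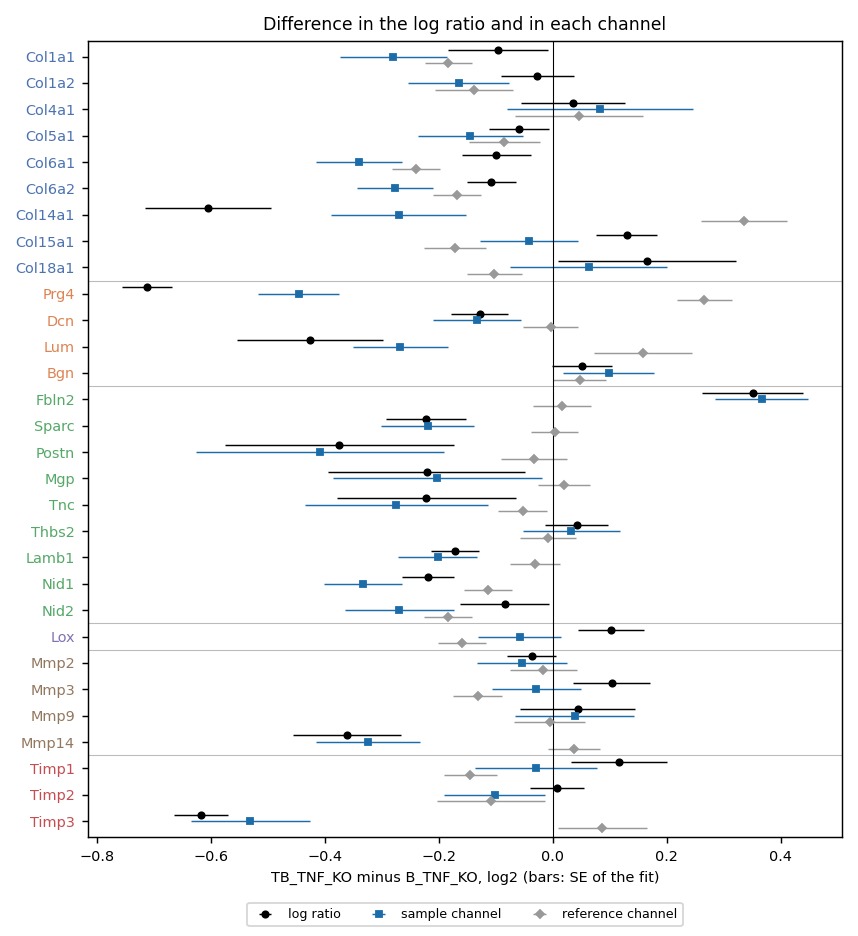
For each of the 30 genes, in rows by role, the x axis gives the TB_TNF_KO minus B_TNF_KO difference on the log2 scale, with bars of 1 SE of the limma fit: black circles are the log ratio, blue squares the sample channel and grey diamonds the reference channel. Prg4, Col14a1 and Lum have diamonds right of 0, and the diamonds of Timp3, Fbln2, Mmp14, Postn and Sparc lie within 0.10 of it.

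In all, with the replicate number as a block and all 6 arrays counted separately, the count of lower matrix genes rose from 1 to 7 and of higher ones from 0 to 2. Those lower were Prg4 (adjusted p = 0.010), Timp3, Col14a1, Tnc, Nid1, Mmp14 and Postn, and those higher were Fbln2 and Col18a1. Under that block 2404 of all 37049 genes were lower and 683 higher. Without the block but with 6 separate arrays the matrix counts were 5 lower (Prg4, Timp3, Col14a1, Nid1 and Lamb1) and 1 higher (Fbln2), against 4.68% and 1.45% of all genes. Both fits count TB_TNF_KO arrays 1 and 2 as separate samples. If these held 1 RNA, their p-values are too small.

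The sign of a difference depended on the setting for part of the genes. Over 20 alternatives, 15 of the 30 genes kept 1 sign in all, 14 of them lower and Fbln2 higher, and the other 15 changed sign in at least 1. Prg4 ranged from -0.87 to -0.34 and passed in 11, Timp3 from -0.78 to -0.26 and passed in 5, and Col14a1 from -0.71 to -0.12 and passed in 2. Mmp14 (-0.48 to -0.22) and Nid1 (-0.32 to -0.11) had narrower ranges, passing in 1 and 2.

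**Figure D5:**
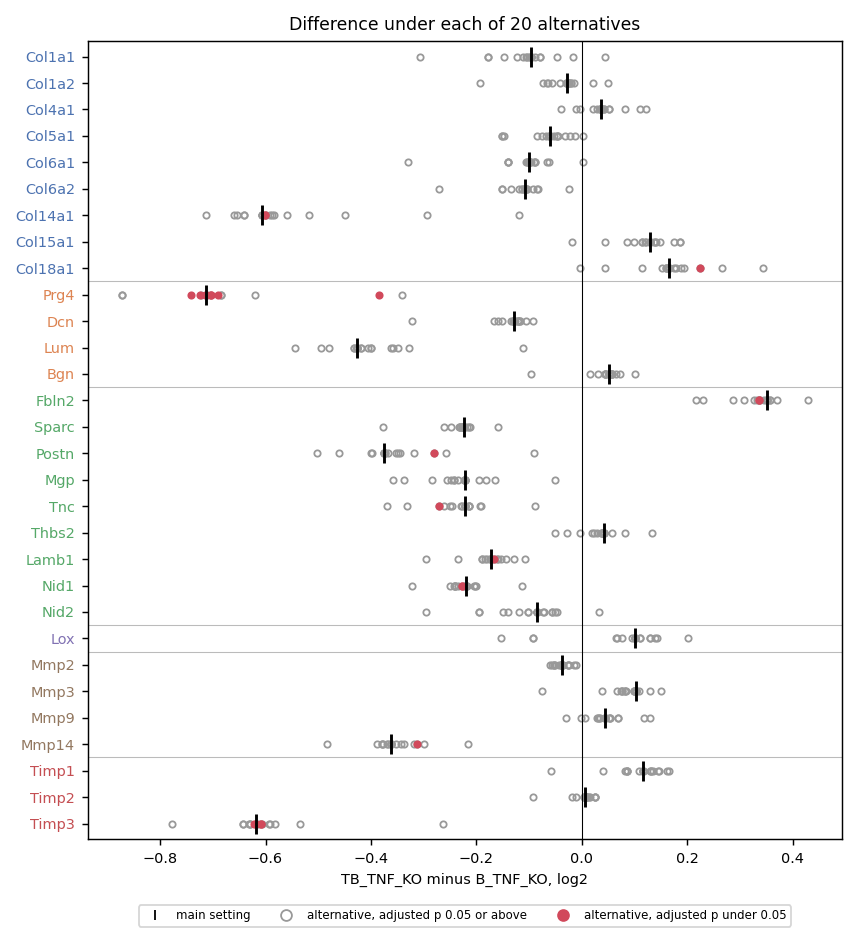
For each of the 30 genes, in rows by role, the x axis gives the TB_TNF_KO minus B_TNF_KO difference on the log2 scale: the black bar is the value reported, grey circles are alternatives with an adjusted p of 0.05 or above and red dots those under it. The Prg4 row runs from -0.87 to -0.34 with 11 red dots, and all points of the Col14a1, Timp3, Lum and Mmp14 rows lie left of 0.

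Markers of the cells that make matrix are given beside these values. Of 7 measured reticular cell markers 5 were below 0, with a median difference of -0.13 and a range of -0.40 to 0.05. Their summed background-subtracted signal ran from 19509 to 25806 in B_TNF_KO and from 14757 to 16608 in TB_TNF_KO. These sums are not scaled between arrays, and the sum over all genes separated the groups too (3.51e+07 to 4.40e+07 and 2.69e+07 to 3.37e+07), so the lack of overlap is no trait of a list. Pdgfra, a receptor of matrix-making fibroblasts, differed by -0.20 (SE 0.08), Pdgfrb by -0.15 (SE 0.06), and Ccl19 by -0.02 (SE 0.07). None of the 7 was below the detection limit. Their part in the result was not tested.

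Vessel markers also lay below 0, namely all 6 measured blood endothelial genes (median -0.25, summed signal 3319 to 4104 and 2295 to 2634) and all 6 lymphatic ones (median -0.26, 6130 to 8706 and 3667 to 4488). One of the latter, Lyve1, passed at -1.22, with a difference of -0.57 in the sample channel and 0.65 in the reference channel. Mesothelial (7 measured, median 0.00, 1913 to 2379 and 1450 to 1702) and adipocyte markers (8 measured, median -0.04, 83893 to 104267 and 34395 to 80156) had medians nearer 0. Macrophage (5 measured, median -0.13), B cell (6 measured, -0.09) and T cell markers (6 measured, -0.07) lay between. The order of these lists hung on the processing. In the sample channel alone the medians were -0.17 (blood endothelial), -0.16 (lymphatic), -0.15 (mesothelial) and -0.10 (adipocyte). There they were -0.25 for macrophage, -0.07 for B cell and -0.03 for T cell markers. The summed signals are again not scaled between arrays, and the sum over all genes separated the groups too. All genes of these lists were well above background on all 6 arrays, and what part these cells had in the matrix values was not tested.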

How the data were processed

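RNA from pooled mesenteric nodes was measured on 6 two-colour Agilent arrays. Scans were read in Agilent Feature Extraction A.7.5.1, per the file headers. Its deposited output lists, for each spot, the intensity and local background of both dyes and their log10 ratio, reference over sample. The series table deposited by the authors is in log10 and tracked the processed sample signal within arrays (r across probes 0.993 to 0.996). Between groups it tracked the scanner's log ratio (r across genes 0.915) more closely than the sample channel (0.667), so its scaling and background step stay unknown.

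Intensities were background corrected with normexp (offset 50) and normalised by loess within arrays in limma 3.58.1 (R 4.3.3). Control spots and 228 outlier spots were left out. Ratios were taken as sample over reference in log2. Probes well above background on 3 or more arrays (40791 of 41006) were kept. The brightest probe stood for a gene, and 37049 genes were tested, 12236 with a symbol. Of 41034 spots, 15303 took a symbol through their accession from a RefSeq table of GRCm38.p6, used for names only, and the rest kept the file's name. The number of arrays limits the precision.

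Groups were compared with lmFit and eBayes, with Benjamini-Hochberg adjusted p under 0.05 over all genes. TB_TNF_KO arrays 1 and 2 entered as their mean. Channels were fitted after Aquantile scaling between arrays. The matrix genes and gene lists were chosen with earlier results of these data known. Per role the genes with the largest and next largest difference were named with every array, as was any gene past the threshold or with probes of opposite sign; per wider list, the gene with the smallest unadjusted p in each direction was named, and marker lists were given by counts. Other matrix genes, and single markers, were added with their values seen.

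Replicate numbers in the labels were checked as pairs. Deviations from the group means correlated by 0.14, 0.52 and 0.62 for same-numbered arrays, and B_TNF_KO array 3 ran against TB_TNF_KO arrays 1 and 2 (-0.48 and -0.54). These values set replicate 3 apart but do not settle pairs 1 and 2. The numbers were taken as paired all the same. B_TNF_KO array 2 also correlated with TB_TNF_KO array 1 (0.41), which is near identical to array 2. Alternatives covered background, normalisation, channels, the authors' values, filters, probes, spread model, array weights, base composition, pairing and each array left out. The fit was tested on simulated data. Figures used matplotlib 3.10.9 in Python 3.11.15.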

Additional observations from a re-analysis of the deposited data

How the results depend on the processing

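Against 1 matrix gene lower and 0 higher, and 4 of all genes lower and 0 higher, these settings moved a count by over 1.5 times. No background subtraction and the authors' values each gave 0 matrix genes and 0 genes lower, the scanner's log ratio 0 and 1, and the mean of all probes 0 and 2. Saturated probes left out gave 2 matrix genes lower, with 146 of all genes lower and 55 higher, the trended robust spread model 2, with 363 and 124, and array weights 2, with 322 and 103. The sample channel alone gave 286 genes lower and 253 higher, with Prg4 still passing at -0.39. Counting 6 arrays separately gave 5 matrix genes lower and 1 higher, with 1735 and 537 of all genes. The replicate block by the paired numbers gave 7 and 2, with 2404 and 683. With each array left out in turn, 0 to 1 matrix genes and 0 to 4 genes were lower and 0 higher. Leaving out TB_TNF_KO replicate 3 leaves that group with 1 sample, assumed to vary like the other group. Leaving out the pool labelled female is the fit without TB_TNF_KO replicate 2. That fit does not take sex out of the comparison, since TB_TNF_KO replicate 1, as low in Eif2s3y, stays in it. Median centring, the filters on dim probes and the base composition correction kept the calls within 1.5 times. The filters on dim or saturated probes and the trended robust spread model could not change the sign of a matrix gene. Over 600 values of single matrix genes, with those settings included, 550 kept the sign and the call status, and 0 reversed a call. In 9 the call of Prg4 was lost, in 16 a call was gained, and in 25 the sign changed without a call. The cause of these changes was not tested, except that fewer samples or genes were fitted where they were left out. Although all 35 probes were well above background, many were dim, with sample intensities of 44 to 74 for Lox, 52 to 84 for Col5a1 and 58 to 86 for Timp1, and background subtraction moved Prg4 from -0.34 to -0.71.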

Other observations

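Matrix genes outside the set were listed by the same roles and read in the same limma comparison. Of 121 measured, 0 passed in either direction, 15 were lower (12.4%) and 16 higher (13.2%) at an unadjusted p under 0.05, against 11.3% and 5.04% of all genes, and the median difference was -0.01. The 30 measured genes of the set had a lower median (-0.09) than these. Without background subtraction the median was 0.00 for the set and 0.00 for the wider lists. The difference was not tested, and the set was chosen with earlier results of these data known.

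The nearest to a call was Sparcl1, the relative of Sparc. Its log2 ratio averaged 2.38 in B_TNF_KO (SD 0.03, n = 3) and 1.74 in TB_TNF_KO (SD 0.19, n = 2), lower on every TB_TNF_KO array, by 0.63 (SE 0.08, adjusted p = 0.053). Among 29 other glycoproteins it had the smallest unadjusted p of the lower ones, and Ecm1 that of the higher ones, at 0.29 (SE 0.06, adjusted p = 0.092). The median of those 29 was -0.04.

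Of 18 other collagens 3 differences were below 0 and 15 above, with a median of 0.04. Col8a2, a short-chain collagen, led the higher values at 0.24 (SE 0.07, adjusted p = 0.19), and Col4a3 the lower ones at -0.09 (SE 0.04). In the 19 other proteoglycans the median was 0.00, with Sdc2 (syndecan) at -0.18 (SE 0.04) and Ncan at 0.10 (SE 0.04).

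Among 26 other matrix proteases Ctsk, the collagen-degrading cathepsin, differed by -0.28 (SE 0.06, adjusted p = 0.094) in the log ratio. That difference lay in the reference channel (0.28), with 0.00 in the sample channel. Mmp13, a collagenase, led the higher proteases at 0.17 (SE 0.05). Reck, a membrane-bound metalloproteinase inhibitor, differed by -0.21 (SE 0.05) and Cst3, the cystatin that blocks cathepsins, by 0.19 (SE 0.05), among 8 other inhibitors.

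In the 12 collagen processing genes P4ha2, a prolyl hydroxylase subunit, was at 0.27 (SE 0.05, adjusted p = 0.078) and Serpinh1, the collagen chaperone, at -0.26 (SE 0.19). Of 9 matrix receptors, 5 differences were below 0 and 4 above, from -0.04 to 0.68. All TB_TNF_KO arrays lay above all B_TNF_KO arrays for 4 (44.4%, against 10.7% of all genes), and for 0 below. Itga3, an integrin chain for laminin, was 1 of these 4, at 0.40 (SE 0.07, adjusted p = 0.068). Ddr2, a collagen receptor, was at -0.04 (SE 0.06).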
